A study of Mus musculus with 7 samples.

Results

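The 9 genes described here were listed together as genes of the absorptive cells of the mouse colon. They are the carbonic anhydrases Car1, Car2 and Car4, the water channel Aqp8, the lipid-handling genes Fabp2 and Apob, the meprin subunits Mep1a and Mep1b, and the keratin Krt20. They were taken as a listed set of symbols, matched to 11 of 12488 probe sets and to 9 of the 8251 genes that the platform annotation names. The set was chosen with earlier results of these data known. Its counts beside the shares of all genes are therefore descriptions and no independent support for a loss or a recovery. All 9 had a signal of at least 100 in the highest pool, the level required for testing, which 4316 of the 8251 genes reached. Apob did so only through the week 12 TNBS pool and the later saline pool, so its lower readings elsewhere follow from how it passed, and values over the set are also given without it.

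Colitis had been induced in female CD-1 outbred mice, 10 to 12 weeks old at the start, with 6 enemas of TNBS, a hapten that provokes immune inflammation of the bowel wall, dissolved in ethanol. Control mice were given saline. Mice given ethanol without TNBS were not analysed here, so effects of TNBS and of its ethanol vehicle cannot be told apart. Colon was sampled 4 ± 0.5 cm from the anus, and 10 µg of RNA, a mix of all mice in the group, was labelled and hybridised to oligonucleotide arrays. The week 6 TNBS pool held 6 mice killed 3 days after the enemas ended, and the week 6 saline pool held 5 mice and was read on 2 arrays. Recovery was sampled in 4 TNBS mice at week 8, 2 weeks past the enemas, in 5 at week 10 (4 weeks past them) and in 4 at week 12 (6 weeks past them). The later saline pool held 4 mice, of which 2 were killed at 2 weeks and 2 at 4 weeks, so week 12 was set against younger controls. Each group was therefore a single pool, and the spread between mice cannot be seen in these data.

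Absorptive colonocytes mature as they move from the crypt base to the surface, where they take up salt, water and short-chain fatty acids. Carbonic anhydrases convert carbon dioxide and water into bicarbonate and protons, which feed the ion exchangers of the apical membrane. The brush border is the layer of microvilli on that membrane, and it carries channels, membrane-bound enzymes and proteases. In whole colon RNA, fewer colonocytes and less RNA of a gene in each colonocyte cannot be told apart.

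Promoter windows were found in the RefSeq table of assembly GRCm38.p6 for 6 of the 9 genes (Aqp8, Car4, Fabp2, Mep1a, Apob and Krt20), each covering 250 bases before and 50 bases after the start. The windows of the 3 genes with the lowest measured ratios of TNBS to saline at week 6 are shown beside that of Krt20, which was not lower at that time. They lie at chr3:122894822-122895121 on the plus strand for Fabp2, chr11:84957504-84957803 on the plus strand for Car4, chr7:123462044-123462343 on the plus strand for Aqp8, and chr11:99438104-99438403 on the minus strand for Krt20. Capitals mark matches to the searched motifs, and each sequence runs 5′ to 3′ along the gene's strand.
Fabp2: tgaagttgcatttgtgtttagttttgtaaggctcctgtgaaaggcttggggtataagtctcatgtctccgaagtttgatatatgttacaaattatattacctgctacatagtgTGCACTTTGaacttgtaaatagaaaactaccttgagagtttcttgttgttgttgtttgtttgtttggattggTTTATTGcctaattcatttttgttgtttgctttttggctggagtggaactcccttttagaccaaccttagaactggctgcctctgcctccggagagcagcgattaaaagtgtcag
Car4: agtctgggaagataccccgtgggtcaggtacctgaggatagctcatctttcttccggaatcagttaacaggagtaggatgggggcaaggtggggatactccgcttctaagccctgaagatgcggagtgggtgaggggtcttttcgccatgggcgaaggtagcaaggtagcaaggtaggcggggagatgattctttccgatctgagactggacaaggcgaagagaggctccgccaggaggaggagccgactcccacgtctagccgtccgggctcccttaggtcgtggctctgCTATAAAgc
Aqp8: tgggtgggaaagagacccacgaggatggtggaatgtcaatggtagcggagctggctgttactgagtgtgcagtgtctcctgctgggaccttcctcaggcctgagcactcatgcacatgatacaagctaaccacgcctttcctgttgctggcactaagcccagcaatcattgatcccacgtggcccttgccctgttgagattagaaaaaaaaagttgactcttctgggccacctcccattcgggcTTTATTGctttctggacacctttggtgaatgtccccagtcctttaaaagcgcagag
Krt20: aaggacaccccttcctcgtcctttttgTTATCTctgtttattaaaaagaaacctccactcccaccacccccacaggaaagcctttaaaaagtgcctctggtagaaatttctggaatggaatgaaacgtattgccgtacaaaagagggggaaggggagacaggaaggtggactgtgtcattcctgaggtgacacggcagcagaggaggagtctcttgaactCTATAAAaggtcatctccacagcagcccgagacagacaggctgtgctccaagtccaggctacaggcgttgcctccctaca
The motifs were chosen after the expression values had been seen, and both strands were searched. They were CAAAGNNCA for the core of HNF4A sites, GTTAAT for HNF1, TTTATNG for CDX2, AGATAA for GATA factors and TATAAA for the TATA box. TTTATNG was present in 6 of 6 windows, against 10.9% of the 32851 promoter windows of the table. In Car4, Apob and Krt20 that match overlapped a TATAAA match, a motif present in 3 of 6 windows and 13.6% of all windows. The TTTATNG matches that did not overlap it began at position -65 in Fabp2, -6 in Aqp8 and 14 in Mep1a, counted from the start. The TATAAA matches began at position -60 in Apob, -29 in Krt20 and 43 in Car4, the last of these after the start. CAAAGNNCA was found in Fabp2 at position -137 and in Apob at position -103, against 6.36% of all windows. AGATAA was found in Krt20 alone at position -223, against 11.2% of all windows. GTTAAT was in none of the 6 windows and in 7.1% of all windows. These matches describe letters in the windows and do not show binding.

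The values are signals on a linear scale, which the authors had scaled to a target of 150 on each array. Medians of the 7 arrays ran from 51.7 to 61.1. Signals under 50, which were 45.4% to 49.3% of each array, were set to this floor. The difference between the 2 arrays of the week 6 saline pool had an SD of 0.29 on the log2 scale over the 4316 genes, and this SD serves below as the measurement spread. It covers labelling or hybridisation and not mice. The actin 3′ to 5′ signal ratio was 1.14, 1.23 and 1.24 on the 3 week 6 arrays and between 0.799 and 0.819 on the 4 later arrays. The Gapdh ratio did not split in this way, at 0.91, 0.94 and 0.93 on the week 6 arrays and between 0.869 and 1.004 on the later arrays. The matched comparisons below were made within each of these sets of arrays, and the comparisons of one set with the other carry the actin difference as well. All 4 small intestine markers on the array (Fabp1, Apoa1, Apoa4 and Lct) were under the floor on every array, with a highest signal of 33.7.

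**Figure D1:**
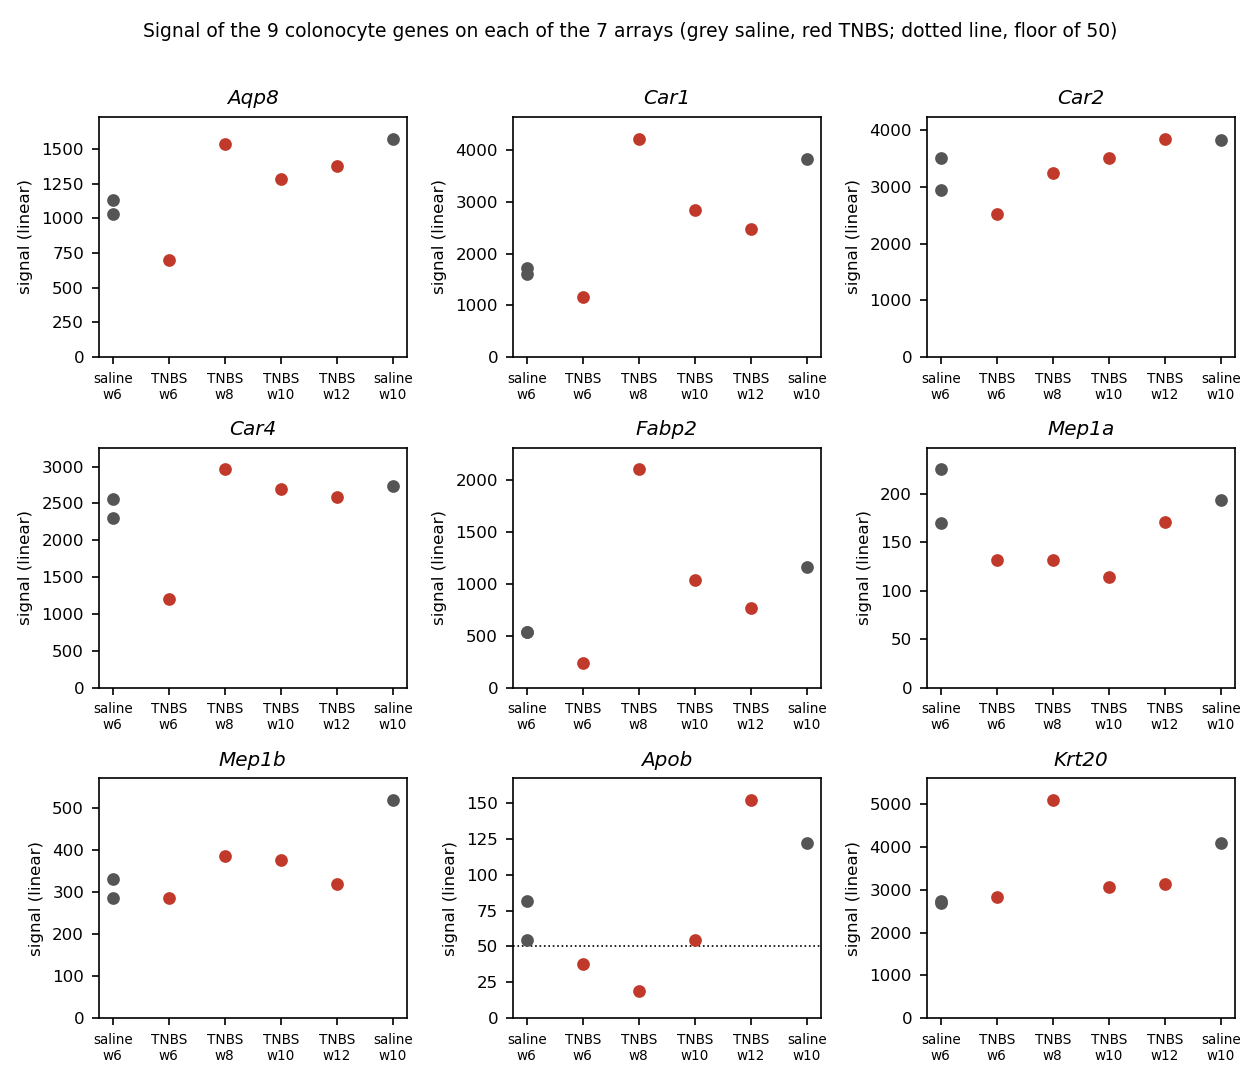
Signal of each gene (linear scale, y axis from 0) on the 7 arrays, with 1 point per array; grey points are saline and red points TNBS, and the dotted line in the Apob panel is the floor of 50. The week 6 TNBS point lies below every other array for Aqp8, Car1, Car2, Car4 and Fabp2, while Krt20 reads 2823.0 there against 2699.5 and 2729.9 on the week 6 saline arrays.

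At week 6, 3 days after the enemas, most of the 9 genes were lower with TNBS than with saline. The median log2 difference over the 9 genes was -0.52, against -0.02 over all 4316 genes, and -0.54 without Apob. Of the 9 genes, 8 were below 0, against 52.6% of all genes, and 2 were at least 2-fold lower, against 0.996% of all genes. Fabp2 was 2.23-fold lower and Car4 2.02-fold lower. Without the first week 6 saline array Car4 was at -0.94 and 1 of 9 genes was past 2-fold. Aqp8 was 1.55-fold, Mep1a 1.48-fold, Car1 1.43-fold and Car2 1.28-fold lower. Mep1b differed by 1.07-fold and Krt20 by 1.04-fold, both within the measurement spread. With 1 pool on each side these comparisons have no test. As the set was chosen with earlier results known, the shares of all genes are no test of it either.

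The 3 later TNBS pools were set against the later saline pool and so share that control. At week 8 the median of the 9 genes was -0.04 (all genes -0.07), with 5 of 9 below 0 (56.5% of all genes) and 1 of 9, Apob, at least 2-fold lower (1.76% of all genes). At week 10 the median was -0.42 (all genes -0.00), with 9 of 9 below 0 (50.6% of all genes) and 1 of 9, again Apob, at least 2-fold lower (0.649% of all genes). At week 12 it was -0.19 (all genes 0.0), with 7 of 9 below 0 (49.7% of all genes) and 0 of 9 at least 2-fold lower (0.88% of all genes). Without Apob the medians at weeks 8, 10 and 12 were 0.04, -0.36 and -0.29, the first of these turning sign, and 0 of 8 genes were at least 2-fold lower at any of these times. With all arrays scaled to one median, the middle gene shifted by 0.17 at week 8 and 0.13 at week 10, and under that scaling 4 of 9 genes were below 0 at week 8, 7 of 9 at week 10 and 7 of 9 at week 12. Under quantile normalization these counts were 7, 8 and 6 of 9. At week 6 both scalings gave 8 of 9 below 0.

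**Figure D2:**
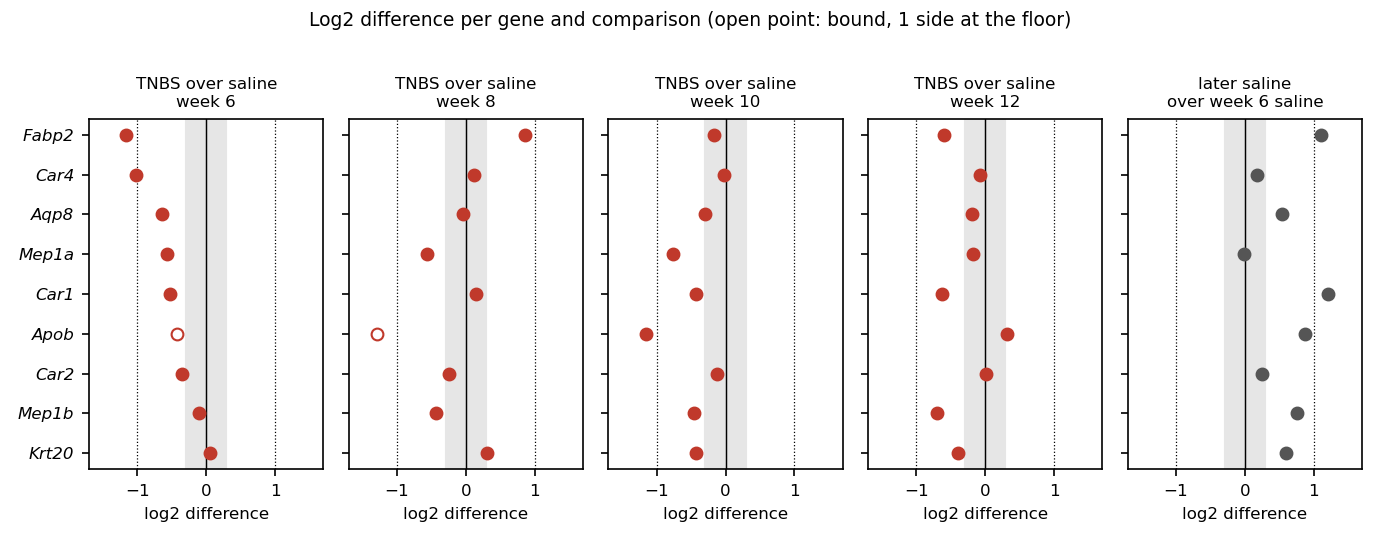
Log2 difference of each gene (x axis) for the 4 matched comparisons of TNBS with saline and for the later over the week 6 saline pool; each point is 1 pool against 1 pool, open points are bounds with 1 side at the floor, the grey band is ± 1 SD of the repeated saline array (0.29) and dotted lines mark 2-fold. Fabp2 and Car4 lie at -1.16 and -1.01 at week 6 and at 0.86 and 0.12 at week 8, and 8 of 9 genes lie above 0 in the comparison of the saline pools.

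Car4 is the membrane-anchored carbonic anhydrase of the apical surface. Its brighter probe set gave signals of 2559.6 and 2300.3 on the week 6 saline arrays and 1201.1 in the week 6 TNBS pool. It gave 2962.5, 2697.1 and 2590.2 in the week 8, 10 and 12 TNBS pools and 2731.6 in the later saline pool. The week 6 TNBS pool stood apart below all other arrays, and the remaining 6 readings spanned 2300.3 to 2962.5. The log2 differences were -1.01 at week 6 and 0.12, -0.02 and -0.08 at weeks 8, 10 and 12, so all 3 later pools lay within the measurement spread of saline. In order of level, every step above the week 6 TNBS pool was smaller than that spread.

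The other Car4 probe set did not follow this course throughout. It gave 186.1 and 218.8 in week 6 saline, 146.4 in week 6 TNBS, 224.6, 159.9 and 147.3 in the later TNBS pools and 258.0 in later saline. It was 1.38-fold lower at week 6, 1.15-fold at week 8, 1.61-fold at week 10 and 1.75-fold lower at week 12. The probe sets of Car4 therefore both read lower at week 6 and disagreed at weeks 10 and 12.

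Car1 is a cytosolic carbonic anhydrase abundant in colonocytes. Its signals were 1720.6 and 1598.0 in week 6 saline, 1156.1 in week 6 TNBS, 4224.4, 2848.3 and 2472.2 in the later TNBS pools and 3832.8 in later saline. All 4 later arrays lay above all 3 week 6 arrays, whatever the treatment. The log2 differences from matched saline were -0.52, 0.14, -0.43 and -0.63 at weeks 6, 8, 10 and 12. The week 8 pool was the highest reading of Car1 and stood within the measurement spread of the later saline pool, whereas the week 12 pool was 1.55-fold lower than saline.

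Car2 is the cytosolic isozyme found in many tissues. It read 3509.6 and 2944.3 in week 6 saline, 2518.5 in week 6 TNBS, 3250.8, 3513.2 and 3853.3 in the later TNBS pools and 3835.2 in later saline. Its whole range over the pools was 1.53-fold, the narrowest of the 9 genes. The log2 difference of -0.35 at week 6 was just outside the measurement spread, and those of -0.24, -0.13 and 0.01 at the later times were within it.

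Of 13 other carbonic anhydrase genes listed, 6 were on the array and 3 were measurable, none of them past 2-fold on the floored scale in any matched comparison. Car12, another membrane isozyme, gave log2 differences of 0.26, 0.13, 0.22 and -0.36 at weeks 6, 8, 10 and 12. Car3, which lies between Car1 and Car2 in the gene order of chromosome 3, was under the floor on both week 6 saline arrays and at week 12. It read 82.9, 150.9 and 90.5 in the week 6, 8 and 10 TNBS pools and 81.8 in later saline, so it was at least 1.66-fold higher with TNBS at week 6, where both its neighbours were lower. Car8, a related protein without catalytic activity, was at least 1.39-fold lower at week 6 and 1.60-fold and 1.64-fold higher at weeks 8 and 10.

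Aqp8 is the water channel of the surface colonocyte membrane. It read 1134.7 and 1032.3 in week 6 saline and 696.7 in week 6 TNBS, below every other array. The later TNBS pools read 1537.0, 1286.5 and 1377.7 and the later saline pool 1575.7. The log2 differences were -0.64 at week 6 and -0.04, -0.29 and -0.19 at weeks 8, 10 and 12. All 4 were below 0, and the difference at week 10 was at the edge of the measurement spread.

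Of 29 genes listed for ion and water transport, 14 were measurable. At week 6, 12 of the 14 were below 0 (52.6% of all genes) with a median of -0.27, and 1 was at least 2-fold lower (0.996% of all genes). That gene was Slc20a1, a phosphate transporter named here after its values were seen, which read 299.4 against 915.67 in week 6 saline and 941.3 at week 12. At week 8 the list had a median of -0.36 with 3 of 14 at least 2-fold lower (1.76% of all genes). These were the sulphate transporter Slc26a2 at -1.58, the phosphate transporter Slc34a2 at -1.53 and Hsd11b2 at -1.33, an enzyme that protects the aldosterone receptor from glucocorticoids. The medians at weeks 10 and 12 were -0.08 and 0.04, that of week 10 turning to 0.05 under equal array medians. Aqp8 and Car4 were within the measurement spread of saline at week 8, when these 3 transport genes had their lowest ratios.

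Fabp2 encodes the intestinal fatty acid-binding protein. It read 539.0 and 538.6 on the week 6 saline arrays and 241.2 in week 6 TNBS. It then read 2102.2, 1034.9 and 763.3 in the week 8, 10 and 12 TNBS pools, against 1159.4 in later saline. Fabp2 had the widest range of the 9 genes, 8.72-fold from week 6 TNBS to week 8 TNBS, and both ends of the range were TNBS pools. Relative to matched saline it was 2.23-fold lower at week 6, 1.81-fold higher at week 8, 1.12-fold lower at week 10 and 1.52-fold lower at week 12. In order of level, the week 10 TNBS pool and the later saline pool were the only neighbours within the measurement spread of each other.

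Apob encodes apolipoprotein B, the structural protein of chylomicrons and other lipoproteins. Its signals were low, at 81.8 and 54.5 in week 6 saline, 37.8, 19.2, 54.6 and 151.8 in the TNBS pools of weeks 6, 8, 10 and 12, and 121.9 in later saline. With the floor of 50 it was at least 1.34-fold lower at week 6 and at least 2.44-fold lower at week 8, 2.23-fold lower at week 10 and 1.25-fold higher at week 12. The repeated saline arrays differed by 1.50-fold for this gene, so the week 6 bound is smaller than its own repeat error. The week 6 and week 8 TNBS readings were both under the floor and have no order.

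Of 22 other genes listed for lipid uptake and lipoprotein assembly, 17 were on the array and 8 were measurable. Their medians were 0.36, 0.26, -0.08 and 0.11 at weeks 6, 8, 10 and 12, with the median of week 10 at 0.05 under equal array medians. At week 6, 3 of 8 were below 0 (52.6% of all genes) and 2 of 8 were at least 2-fold higher (2.55% of all genes). These were Abca1, a cholesterol exporter that macrophages also express, at 2.07-fold and Apoe, an apolipoprotein that macrophages also make, at 2.00-fold. The acyl-CoA synthetases Acsl4 and Acsl5 were at 0.81 and 0.33 at week 6. Acsl4 reached the level required for testing only through the TNBS pools of weeks 6 and 8, at 129.0 and 131.3. Abca1 did so only through TNBS pools, with 76.8 in week 6 saline and 84.5 in later saline. The higher week 6 readings of Acsl4 and Abca1 thus follow in part from how they passed. Fabp2 was thus lower at week 6 while 5 of these 8 genes were above 0.

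Mep1a and Mep1b encode the subunits of meprin, a metalloprotease of the brush border. Mep1a read 169.7 and 225.4 in week 6 saline, 132.1, 131.7, 114.0 and 170.8 in the TNBS pools of weeks 6, 8, 10 and 12, and 193.8 in later saline. Its 3 lowest readings were the TNBS pools of weeks 6, 8 and 10. The log2 differences were -0.57, -0.56, -0.77 and -0.18, and the repeated saline arrays differed by 0.41 for this gene. The saline pools differed by -0.01, so the choice of control hardly mattered for Mep1a.

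Mep1b read 331.1 and 285.8 in week 6 saline and 286.8 in week 6 TNBS, which lay between the saline arrays. It read 384.7, 376.4 and 319.3 in the later TNBS pools and 518.0 in later saline. The log2 differences were -0.10 at week 6 and -0.43, -0.46 and -0.70 at weeks 8, 10 and 12. The later TNBS pools lay above 285.8 and 286.8 but below the later saline pool in each case. The second probe set of Mep1b was at or near the floor on all arrays and gave no measure. Over the 6 pools Mep1a and Mep1b had a Pearson r of 0.18.

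Of 28 other brush border genes listed, 16 were on the array and 8 were measurable. At week 6, 5 of 8 were below 0 (52.6% of all genes) with a median of -0.24. At week 12 all 8 were below 0 (49.7% of all genes) with a median of -0.32 (7 of 8 under quantile normalization). This depended on the control, because the later saline pool was above week 6 saline for this list, with a median of 0.40. Against week 6 saline the mean log2 difference of the list in the week 12 TNBS pool was 0.01. Ezr, which links microvilli to actin, read 575.7 against 767.35 in week 6 saline and 803.8 against 1025.4 at week 12. Ceacam1, an adhesion molecule of the apical surface, was at -0.46, -0.19, -0.19 and -0.31. Guca2b had the highest value of the list at week 6, at 0.44, and was at -0.81, -0.59 and -0.24 later. Enpep, a membrane aminopeptidase, was at -0.07 at week 6 and at -1.19, -0.92 and -0.49 later, and it was the only gene of the list at least 2-fold lower at any time.

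Krt20 is the keratin of mature surface epithelium. It read 2699.5 and 2729.9 in week 6 saline and 2823.0 in week 6 TNBS. The later TNBS pools read 5085.9, 3054.4 and 3122.0, and later saline 4097.8. Krt20 was therefore the only one of the 9 genes above saline at week 6, by 1.04-fold. It was 1.24-fold higher at week 8 and 1.34-fold and 1.31-fold lower at weeks 10 and 12.

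Of 18 other genes listed for keratins and epithelial maturation, 15 were measurable. At week 6, 12 of 15 were below 0 (52.6% of all genes) with a median of -0.21. The later medians were 0.01, -0.00 and -0.03, whose signs varied with the scaling of the arrays. Tgm3, a transglutaminase of surface epithelium, was 2.15-fold lower at week 6 and 4.06-fold lower at week 8, then 2.03-fold higher at week 12. Its repeated saline arrays differed by 1.75-fold. Gata4 was at 0.14 at week 6 and was at least 2.15-fold lower at week 8. Krt7 was above 0 at every time, at 0.66, 0.36, 0.15 and 0.08.

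Each TNBS pool could also be read against the saline pool of the other time, because the saline pools differed. In the later saline pool Car1 was 2.31-fold, Fabp2 2.15-fold, Apob 1.83-fold, Mep1b 1.68-fold, Krt20 1.51-fold and Aqp8 1.46-fold higher than in the week 6 saline pool. The median over the 9 genes was 0.59, against 0.01 over all genes, and 0.57 without Apob. The higher Apob reading there follows from how it passed the required level. Of the 9 genes, 1 was below 0, against 48.1% of all genes, and 2 were at least 2-fold higher, against 0.857% of all genes. Car2, Car4 and Mep1a differed by 0.25, 0.17 and -0.01, within the measurement spread. Age, time since the enemas and the array set cannot be told apart in this comparison.

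The week 6 TNBS pool was below the later saline pool for 9 of 9 genes (52.9% of all genes), with a median of -1.18 (-1.02 without Apob). Of the 9 genes, 5 were at least 2-fold lower (1.65% of all genes), or 4 of 8 without Apob. Fabp2 was 4.81-fold and Car1 3.32-fold lower there. Against the week 6 saline pool, by contrast, the medians of the 9 genes in the week 8, 10 and 12 TNBS pools were 0.32, 0.17 and 0.26, above 0 at each time. Without Apob they were 0.41, 0.21 and 0.23. For the 9 genes the sign of the later medians thus depended on which saline pool was used, and that of week 6 did not. Without Apob this dependence held at weeks 10 and 12, while the week 8 median was 0.04 against later saline.

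**Figure D3:**
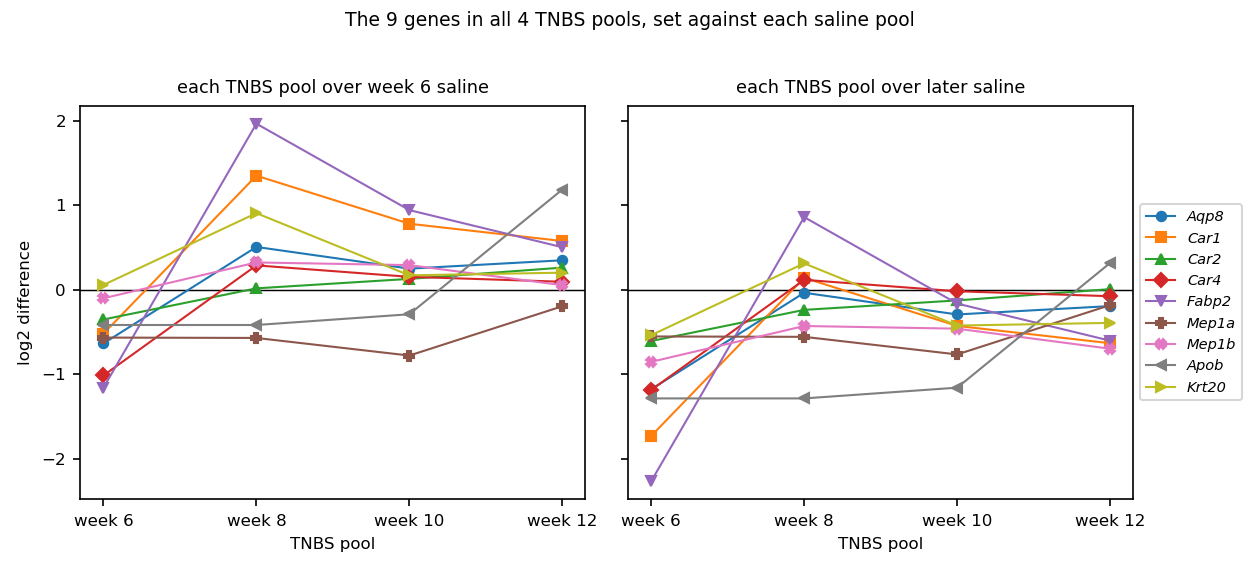
Log2 difference (y axis) of each gene in the TNBS pools of weeks 6 to 12 (x axis) against the week 6 saline pool (left) and the later saline pool (right), with 1 line per gene; Apob is drawn at its bound at weeks 6 and 8. All 9 genes lie below 0 at week 6 in the right panel, while in the left panel Fabp2 runs from -1.16 at week 6 to 1.96 at week 8.

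Among the TNBS pools alone, the week 8 pool exceeded the week 6 pool at least 2-fold for 4 of 9 genes, against 2.09% of all genes. These were Fabp2 at 8.72-fold, Car1 at 3.65-fold, Car4 at 2.47-fold and Aqp8 at 2.21-fold. The week 12 pool also exceeded the week 6 pool at least 2-fold for 4 of 9 genes (2.22% of all genes), and 9 of 9 were higher there, where 47.5% of all genes were below 0. Those 4 were Fabp2, Car4, Car1 and, at a bound of at least 3.04-fold, Apob, without which 3 of 8 remain. From week 8 to week 12 Fabp2 was 2.75-fold, Car1 1.71-fold and Krt20 1.63-fold lower. The shares of all genes are descriptions here too, because the set was chosen with earlier results known.

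The order of the pools showed which genes shared a course. The week 6 TNBS pool was the lowest of the 6 pools for 6 of 9 genes (18.4% of all genes), namely Aqp8, Car1, Car2, Car4, Fabp2 and Mep1b. It was also below every single array for 5 of these (15.7% of all genes), Mep1b being the exception. The week 8 pool was the highest TNBS pool for 6 of 9 genes (23.9% of all genes), namely Aqp8, Car1, Car4, Fabp2, Mep1b and Krt20. All 4 matched differences were below 0 for 3 of 9 genes (15.3% of all genes), namely Aqp8, Mep1a and Mep1b. Over the levels in the 6 pools, Car1 and Fabp2 had r = 0.97 and Aqp8 and Car4 r = 0.95. Mep1a had r = -0.01 with Car1 and -0.07 with Fabp2. Levels and not differences from saline were correlated, so the difference between week 6 and later arrays enters these values. These correlations describe 6 pools and carry no test.

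No difference of the 9 genes passed the tests that the pools allow. In limma, with Benjamini-Hochberg adjustment over 4316 genes, 0 of 9 genes were called for the TNBS effect over all 4 pools, for the effect over the 3 later pools or for the recovery term, which is the later effect minus the week 6 effect. The same held for all 4316 genes, of which 5.12%, 1.78% and 1.85% had an unadjusted p of at most 0.05. The recovery term of Car4 was 1.02 with an SE of 0.38 (unadjusted p = 0.0381, limma adjusted p = 0.999), and it ranged from 0.46 to 1.17 over the alternative settings, with adjusted p from 0.244 to 1.0. That of Fabp2 was 1.19 with an SE of 0.88 and that of Aqp8 0.46 with an SE of 0.35 (limma adjusted p = 0.999 for each). The TNBS effect over all pools was -0.53 for Mep1a with an SE of 0.22 (unadjusted p = 0.0391, limma adjusted p = 0.886, range 0.679 to 1.0 over the settings). The later effect was -0.53 for Mep1b with an SE of 0.23 (limma adjusted p = 1.0). In these fits TNBS pools of different times served as replicates, so change over time is part of the spread.

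Markers of other cells moved at the same times. At week 6 the 8 leukocyte markers were all higher with TNBS, with a median of 1.01, where 52.6% of all genes were below 0. Of these 8, 4 were at least 2-fold higher (Tyrobp, Cd53, Lyz2 and Cd52), against 2.55% of all genes. Their summed signal was 6962 against 4212 and 4442 on the saline arrays. All 6 progenitor and cycling markers were higher, with a median of 0.93. Of them, 3 were at least 2-fold higher (Mki67, Birc5 and Top2a), against the same 2.55% of all genes. The leukocyte marker Ptprc reached the level required for testing only through the week 6 TNBS pool, with a highest signal of 105.2. Top2a did so only through the TNBS pools of weeks 6 and 8. The higher week 6 readings of Ptprc and Top2a thus follow in part from how they passed. Under equal array medians 7 leukocyte markers were measured, with 0 below 0 and a median of 1.06. The 5 measured stroma markers had a median of 0.54. The 11 pan-epithelial genes had a median of -0.03 (0.01 under quantile normalization), with 8 below 0 (52.6% of all genes). Their summed signal of 26428 lay between the 26312 and 27735 of the saline arrays. The 6 goblet cell markers had a median of -0.18 and the 7 smooth muscle markers of -0.16. Measured against the pan-epithelial median, Fabp2 was at -1.13, Car4 at -0.98, Aqp8 at -0.60, Mep1a at -0.53, Car1 at -0.49, Apob at a bound of -0.39, Car2 at -0.32, Mep1b at -0.07 and Krt20 at 0.09 at week 6. The part of the leukocyte, stroma and cycling markers in the week 6 differences was not tested.

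At week 8 the goblet cell markers had a median of 0.52 and the pan-epithelial genes of 0.18, which were 0.14 and -0.11 under quantile normalization. The goblet markers were lower in later saline than in week 6 saline, with a median of -0.33. Their summed signal was 44532 in week 8 TNBS, 28786 in later saline, and 35199 and 41722 on the week 6 saline arrays. At week 12 all 11 pan-epithelial genes were below 0 (49.7% of all genes), with a median of -0.24 (9 of 11 under equal array medians). The 4 measured pancreas markers (Prss2, Ctrb1, Cel and Cela2a) summed to 3660 and 5446 in the week 6 and week 8 TNBS pools and to between 217.5 and 698.4 on the other 5 arrays. Their part in the differences of the 9 genes was not tested.

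**Figure D4:**
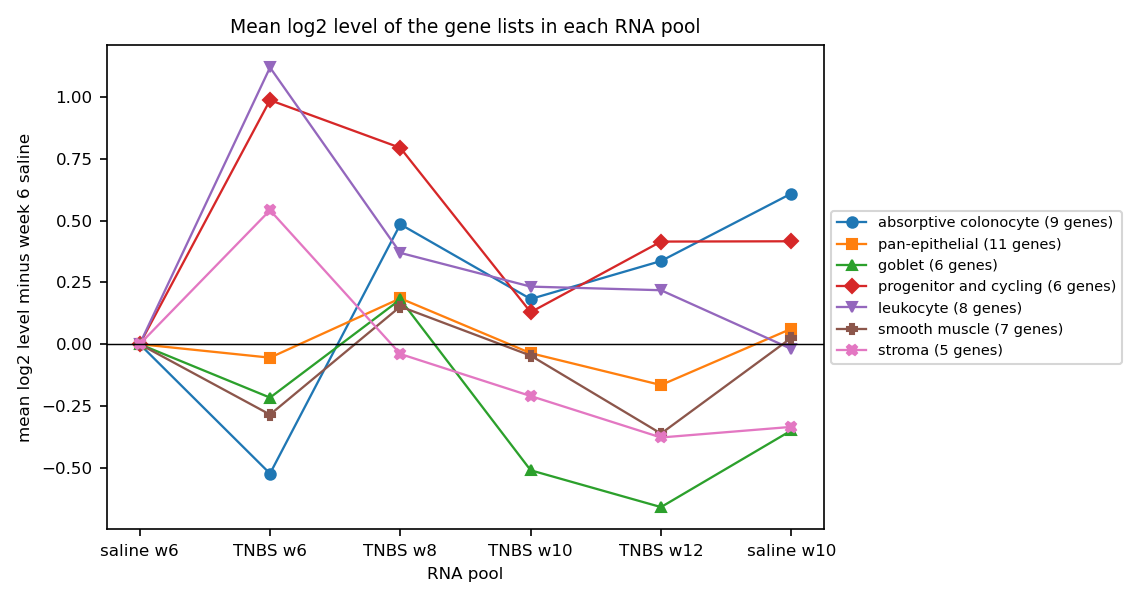
Mean log2 level of the 9 absorptive colonocyte genes and of 6 marker lists in each RNA pool, as the difference from the week 6 saline pool (y axis); lines join the pools of one list, and there is 1 pool per point. At week 6 the absorptive colonocyte genes stand at -0.52 and the leukocyte markers at 1.12, with the pan-epithelial genes at -0.05.

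Outside the set, the genes whose log2 levels over the 6 pools were most like the mean of the 9 genes were Fkbp5, Nkiras1 and Ifrd1 (r = 0.99 each), Vdac3 and Rgs5 (r = 0.98 each). Those most like Car4 were Gucy2c and Atp1b1 (r = 0.99 each) and Ethe1 (r = 0.97). Gucy2c is the receptor for the peptide hormones guanylin and uroguanylin on the apical membrane, and Atp1b1 is a subunit of the sodium pump. Gucy2c read 685.45 in week 6 saline, 435.9 in week 6 TNBS, 838.9, 715.6 and 718.5 in the later TNBS pools and 753.3 in later saline, so its lowest pool was also week 6 TNBS. Those most like Car1 were Dsp, Micos13 and Rfk (r = 0.99 each), of which Dsp encodes the desmosome protein desmoplakin. With 6 pools many genes reach such values, and these are descriptions only.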

How the data were processed

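Per the labels, the authors deposited signal intensity values on a linear scale, 1 per probe set, made with Affymetrix Microarray Suite 5.0 and brought to a target intensity of 150, as the labels state. The genome build is not given in the sources used here. Of 12488 probe sets, 66 controls were left out, and of the rest 10833 had 1 symbol, 396 several and 1193 none in the platform annotation. Entrez identifiers of 10817 were found in the RefSeq table of GRCm38.p6. Signals under 50 were set to 50, log2 was taken, and both week 6 saline arrays were averaged as 1 pool. A gene was its probe set with the highest mean, and genes reaching 100 in the highest pool were tested. limma 3.58.1 (R 4.3.3, empirical Bayes with trend, two-sided) was fitted to the 6 pools, with 3 residual degrees of freedom for all pools and 2 for the later effect and the recovery term. The script was tested on simulated data.

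The members and lists were chosen with earlier results of these data known. From each list the text draws on the up to 4 genes whose mean of the 4 matched differences was largest in absolute size. It also names the 5 genes most like the mean of the 9, and the 3 most like Car4 and Car1. Apoe, Birc5, Cd52, Lyz2, Slc20a1 and Emp1 are named outside this rule, after their values were seen. The number of arrays limits the precision.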

Additional observations from a re-analysis of the deposited data

How the results depend on the processing

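Alternatives were floors of 25 and 100, log2(signal + 50), equal array medians, quantile normalization, the mean of probe sets, no filter, the other saline pool, the median of 11 pan-epithelial genes as reference, and each array or pool left out. Leaving out Apob was added after seeing the data. The number of members called by limma was 0 under every setting. Over all genes, with a floor of 100 the later effect had 63 calls and the recovery term 185, and with no filter 138 and 333, against 0 otherwise, except 2 for all pools without the week 12 pool. For the medians and 2-fold counts of the 9 genes, 69 values were alike, 22 moved and 3 reversed. A median counted as reversed only if its main value was at least 0.0964 in size. This value is the size of the members' median difference between the week 6 saline arrays, divided by the square root of 2. It rests on 1 observed difference and is a rough yardstick, on which the labels of the medians depend. The main week 8 median of -0.04 was smaller in size than 0.0964, so its sign changes were counted as moved or alike. It turned above 0 with equal medians, with the other saline pool and with Apob left out. The week 6 median was -1.18 with the later saline pool, and its count at least 2-fold lower was 5 there and 1 with log2(signal + 50), the mean of probe sets, the pan-epithelial reference or without week 6 saline replicate 1 (2 without replicate 2). The week 8 median was 0.13 with equal medians, -0.20 with quantile normalization, 0.32 with the other saline pool and -0.22 against the pan-epithelial genes, and its count was 0 with a floor of 100, the other saline pool or Apob left out. The week 10 median was -0.29 with a floor of 100 and equal medians, -0.31 against the pan-epithelial genes and 0.17 with the other saline pool, and its count was 0 with a floor of 100, log2(signal + 50), the other saline pool or Apob left out. The week 12 median was -0.35 with the mean of probe sets, -0.29 with Apob left out, 0.26 with the other saline pool and 0.0446 against the pan-epithelial genes. The causes were not tested.

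Of 342 values of single-gene matched differences, 31 had the opposite sign, 17 of them with the other saline pool. In 9 of these 17 the difference had exceeded the measurement spread, as in Car1 (0.78 at week 10 and 0.58 at week 12), Fabp2 (0.50 at week 12), Mep1b (0.32 at week 8) and Krt20 (0.20 at week 12). Of the single-gene limma effects, 17 values reversed. The later effect became 0.0008 for Car2 with equal medians, -0.0529 for Fabp2 with quantile normalization and -0.28 for Car4 with the mean of probe sets. Over the pools left out it ranged from -0.38 (without week 8) to 0.3473 (without week 12) for Fabp2 and from -0.0475 to 0.0494 for Car4, and the recovery term of Car1 was -0.0101 without week 8. Over the pools or arrays left out, the recovery term ranged from -0.81 to 0.0009 for Apob, -0.14 to 0.27 for Mep1a and -0.0101 to 0.38 for Car1, and the effect over all pools from -1.01 to 0.0073 for Car4, -1.16 to 0.0305 for Fabp2 and -0.21 to 0.0565 for Krt20. Leaving out either week 6 pool gave 0.0073 for Car4 and 0.0305 for Fabp2, because only the later effect can then be fitted. Without the later saline pool only the week 6 difference can be fitted, which gave the -1.01 for Car4, -1.16 for Fabp2 and 0.0565 for Krt20. These ends of the ranges restate those effects and do not measure how stable the effect over all pools is. Without the control set covariate Fabp2 was at 0.0094 and Krt20 at 0.0365. No paired analysis was possible because each group is 1 pool and only the arrays of the week 6 saline pool carry replicate numbers.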

Other observations

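At week 8 some epithelial genes ran against each other. Emp1, an epithelial membrane protein chosen here after its values were seen, followed a course like that of Fabp2. It read 971.25 in week 6 saline, 789.3 in week 6 TNBS, 4602.4, 1769.8 and 952.0 in the TNBS pools of weeks 8, 10 and 12, and 2234.7 in later saline. Tgm3 ran the other way, with 612.65 in week 6 saline, 285.1, 173.6, 861.8 and 1428.1 in the TNBS pools of weeks 6, 8, 10 and 12, and 704.0 in later saline. Slc26a2 read 78.3 at week 8, its lowest pool, and 362.0 at week 12, its highest. Of all 4316 genes, Tgm3 had the lowest ratio to saline at week 8 and the highest ratio of week 12 to week 8 TNBS, at 8.23-fold. Fabp2, Car1, Krt20 and Emp1 were at their highest at week 8. With 1 pool of 4 mice at week 8, the spread behind these opposite courses is not known.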
